A study of Homo sapiens with 8 samples.

Results

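The laminin chains described here are the products of LAMA1, LAMA3, LAMA5, LAMB1, LAMB2, LAMB3 and LAMC1. They were found by gene symbol in the deposited RNA-seq counts, where each of the 7 symbols matched 1 of 58302 Ensembl gene IDs. All 7 passed the filter on low counts that left 18240 genes for testing. The cells were Caco-2/15, a human colon cancer line that turns enterocyte-like after its cultures become confluent. Z1flag cells are heterozygous for H2AFZ-Flag and Z2flag cells for H2AFV-Flag, epitope tags placed by CRISPR-Cas9 on genes of the histone variant H2A.Z. Every group therefore carries a tag, and untagged cells were not analysed here. Each line was sequenced subconfluent (Sc) and 7 days postconfluent (Pc), with 2 libraries in each of the 4 groups. The sources used here do not state whether a line is 1 clone or whether replicates are separate cultures, so the p-values measure the spread between these libraries.

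Laminins are secreted cross-shaped proteins of the basement membrane, each built from an alpha, a beta and a gamma chain that join inside the cell. The name of a trimer lists its chains, so laminin-511 holds the products of LAMA5, LAMB1 and LAMC1, and the alpha and beta chains of laminin-332 come from LAMA3 and LAMB3. Laminin-521 has LAMB2 in place of LAMB1, and laminin-111 has LAMA1 in place of LAMA5. In the gut, laminin-111 is known from the embryonic epithelium, whereas chains of laminin-332 and laminin-511 are known from the basement membrane under the villus. Epithelial cells hold laminin-332 through hemidesmosomes, and they bind laminin-511 through integrins and the receptor BCAM.

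In GENCODE v29 on GRCh38, LAMA1 lies on chromosome 18 at 6941744 to 7117814 and LAMA3 on the same chromosome at 23689443 to 23956222. LAMA5 lies on chromosome 20 at 62307955 to 62367312, LAMB1 on chromosome 7 at 107923799 to 108003255 and LAMB2 on chromosome 3 at 49121114 to 49133118. LAMB3 and LAMC1 are on chromosome 1, at 209614870 to 209652466 and 183023460 to 183145592. LAMA3 and LAMC1 are on the plus strand, the other 5 on the minus strand.

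RefSeq promoter windows (GRCh38.p14) were at hand for 6 of the 7 chains, LAMA1 excepted, and the 250 bases before each start were searched on both strands for TGANTCA (the AP-1 motif), GGGCGG (the SP1 motif) and GGAATG (the TEAD motif). Of all 35116 such windows, 6.57% hold TGANTCA, 42.6% GGGCGG and 11.9% GGAATG. Printed are the windows of LAMB2 and LAMB3, the members that rose, and of LAMA3, the partner of LAMB3 in laminin-332 that fell. Capitals mark TGANTCA and GGGCGG on either strand, read 5′ to 3′ along the gene.
LAMB2, chr3:49133051-49133300, minus strand: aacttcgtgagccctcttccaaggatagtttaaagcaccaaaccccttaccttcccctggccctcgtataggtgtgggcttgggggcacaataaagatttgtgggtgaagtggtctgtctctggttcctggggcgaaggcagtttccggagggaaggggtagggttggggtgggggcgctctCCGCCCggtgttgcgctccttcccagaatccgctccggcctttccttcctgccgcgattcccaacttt
LAMB3, chr1:209651375-209651624, minus strand: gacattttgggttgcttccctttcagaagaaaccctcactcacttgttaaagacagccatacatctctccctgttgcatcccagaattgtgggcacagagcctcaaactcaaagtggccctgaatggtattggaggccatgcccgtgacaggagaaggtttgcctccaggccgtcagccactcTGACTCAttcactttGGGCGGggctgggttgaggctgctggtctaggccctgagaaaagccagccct
LAMA3, chr18:23872770-23873019, plus strand: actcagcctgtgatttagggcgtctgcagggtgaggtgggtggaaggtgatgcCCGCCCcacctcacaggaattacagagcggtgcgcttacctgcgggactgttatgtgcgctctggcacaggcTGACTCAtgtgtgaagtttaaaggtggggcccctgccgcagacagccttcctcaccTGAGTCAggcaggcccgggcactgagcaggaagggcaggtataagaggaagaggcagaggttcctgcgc
TGANTCA was found in windows of 2 members: 2 copies for LAMA3, first bases 125 and 69 before the start, and 1 for LAMB3, 67 before it. The LAMB3 window shown is the innermost of 3 listed starts, 1092 bases inside the gene, and the other two windows hold no TGANTCA. The LAMA3 window belongs to a start 183577 bases inside the gene, in front of its shorter form. Each of the 6 chains had at least 1 window with GGGCGG and 0 had GGAATG. The match is one of letters only, and the counts here do not tell which start was used.

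Gene counts per library ranged from 17063826 to 40881682. Postconfluent Z1flag replicate 1 and postconfluent Z2flag replicate 1 lay at opposite ends of the second principal component (13.1% of variance). The Z1flag libraries of experiment 1 had the highest shares of reads outside annotated features (32.0% and 31.4%).

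LAMB2 and LAMB3 rose after confluence in each line, and the gene that had been the highest beta chain, LAMB1, was lower. LAMB2, the beta chain of laminin-521, stood at 28.7 and 45.5 CPM (a gene's counts relative to the TMM-scaled library total) in the 2 subconfluent Z1flag libraries, at 49.6 and 43.9 in subconfluent Z2flag, at 242 and 170 in postconfluent Z1flag, and at 149 and 186 in postconfluent Z2flag libraries. Every postconfluent library was above every subconfluent one. On the log2 scale LAMB2 rose by 2.47 with an SE of 0.28 in Z1flag (edgeR, adjusted p = 0.000271) and by 1.84 with an SE of 0.27 in Z2flag (adjusted p = 0.000952). In bulk RNA fewer cells of a type and less RNA per cell cannot be told apart.

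LAMB3, the beta chain of laminin-332, stood at 153 and 248 CPM in subconfluent Z1flag, 290 and 262 in subconfluent Z2flag, 628 and 527 in postconfluent Z1flag, and 622 and 561 in postconfluent Z2flag libraries. Again the states did not overlap, and subconfluent Z1flag replicate 1 was the lowest. LAMB3 rose by 1.52 with an SE of 0.25 in Z1flag (edgeR, adjusted p = 0.00136) and by 1.10 with an SE of 0.25 in Z2flag (adjusted p = 0.00674) on the log2 scale. Without subconfluent Z2flag replicate 2 the Z2flag change was 1.02 and did not pass (adjusted p = 0.0747).

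LAMB1, the beta chain of laminin-111 and laminin-511, stood at 648 and 713 CPM in subconfluent Z1flag, 720 and 722 in subconfluent Z2flag, 512 and 506 in postconfluent Z1flag, and 639 and 504 in postconfluent Z2flag libraries. The states did not overlap, although postconfluent Z2flag replicate 1 lay close to the subconfluent range. Neither line passed alone (log2 fold changes -0.42 and -0.34, edgeR adjusted p = 0.108 and 0.193). The mean over both lines passed at -0.38 (SE 0.14, adjusted p = 0.0376). That call was lost without postconfluent Z2flag replicate 2 (adjusted p = 0.191), without subconfluent Z1flag replicate 1 (0.0628) or 2 (0.117), and without subconfluent Z2flag replicate 1 (0.118) or 2 (0.124). LAMB1 shares exon sequence with DLD, a gene of the opposite strand that fell by 1.07 (SE 0.14) on the log2 scale, and the sources used here do not state the strand setting of the counting.

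Of the alpha chains, LAMA3 fell and LAMA5 did not pass. LAMA3, the alpha chain of laminin-332, stood at 106 and 132 CPM in subconfluent Z1flag, 120 and 117 in subconfluent Z2flag, 54.7 and 67.4 in postconfluent Z1flag, and 68.5 and 67.0 in postconfluent Z2flag libraries. The states did not overlap. On the log2 scale LAMA3 fell by 0.96 with an SE of 0.19 in Z1flag (edgeR, adjusted p = 0.0039) and by 0.81 with an SE of 0.19 in Z2flag (adjusted p = 0.00968). The Z2flag call was lost without any of its own libraries, with adjusted p = 0.0733 and 0.067 without subconfluent replicates 1 and 2, and 0.072 and 0.0797 without postconfluent replicates 1 and 2. In the mean over both lines LAMA3 passed under every alternative (adjusted p up to 0.00435).

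LAMA5, the alpha chain of laminin-511 and laminin-521, stood at 290 and 237 CPM in subconfluent Z1flag, 267 and 244 in subconfluent Z2flag, 301 and 342 in postconfluent Z1flag, and 408 and 294 in postconfluent Z2flag libraries. Postconfluent libraries were all above subconfluent ones, but the gap, from 290 to 294 CPM, was smaller than the spread within either state. The log2 fold change was 0.29 (95% interval -0.20 to 0.77, edgeR adjusted p = 0.317) in Z1flag, 0.46 (-0.03 to 0.94, adjusted p = 0.123) in Z2flag cells, and 0.37 (SE 0.15, adjusted p = 0.0623) in the mean. The mean passed without postconfluent Z1flag replicate 1 (adjusted p = 0.0183) or postconfluent Z2flag replicate 2 (0.0243), with DESeq2 (0.0474), with a filter of 5 CPM (0.0191), with upper-quartile scaling (0.0104) and without both Z1flag libraries of experiment 1 (0.0303). The Z2flag change passed with upper-quartile scaling (0.0451) and without postconfluent Z1flag replicate 1 (0.0363) or 2 (0.039). LAMA5 shares exon sequence with ADRM1, a gene of the opposite strand that fell by 0.81 (SE 0.19).

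LAMA1, the alpha chain of laminin-111, had the lowest mean level per length of the 7 in each state. It stood at 42.8 and 56.8 CPM in subconfluent Z1flag, 76.9 and 48.8 in subconfluent Z2flag, 24.9 and 46.7 in postconfluent Z1flag, and 44.6 and 29.1 in postconfluent Z2flag libraries, so that the states overlapped. Its mean change of -0.63 (SE 0.24, edgeR adjusted p = 0.049) was at the threshold, while neither line passed (-0.48, adjusted p = 0.287, and -0.77, adjusted p = 0.101). The mean call was lost without postconfluent Z1flag replicate 1 (adjusted p = 0.155), without subconfluent Z1flag replicate 1 (0.0564) or 2 (0.156), without postconfluent Z2flag replicate 1 (0.0531) or 2 (0.22), and without subconfluent Z2flag replicate 1 (0.181). Without postconfluent Z1flag replicate 2 the Z1flag change passed (-1.01, adjusted p = 0.0348).

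LAMC1, the gamma chain that most trimers share, had the highest counts of the 7. It stood at 1722 and 1547 CPM in subconfluent Z1flag, 1318 and 1447 in subconfluent Z2flag, 942 and 1228 in postconfluent Z1flag, and 1603 and 1142 in postconfluent Z2flag libraries. The states overlapped because postconfluent Z2flag replicate 1 was among the highest. LAMC1 changed by -0.59 (95% interval -1.10 to -0.08, edgeR adjusted p = 0.0627) in Z1flag and by -0.01 (-0.52 to 0.50, adjusted p = 0.974) in Z2flag cells, and neither passed. The Z1flag change passed without postconfluent Z1flag replicate 2 (-0.80, adjusted p = 0.0197).

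**Figure D1:**
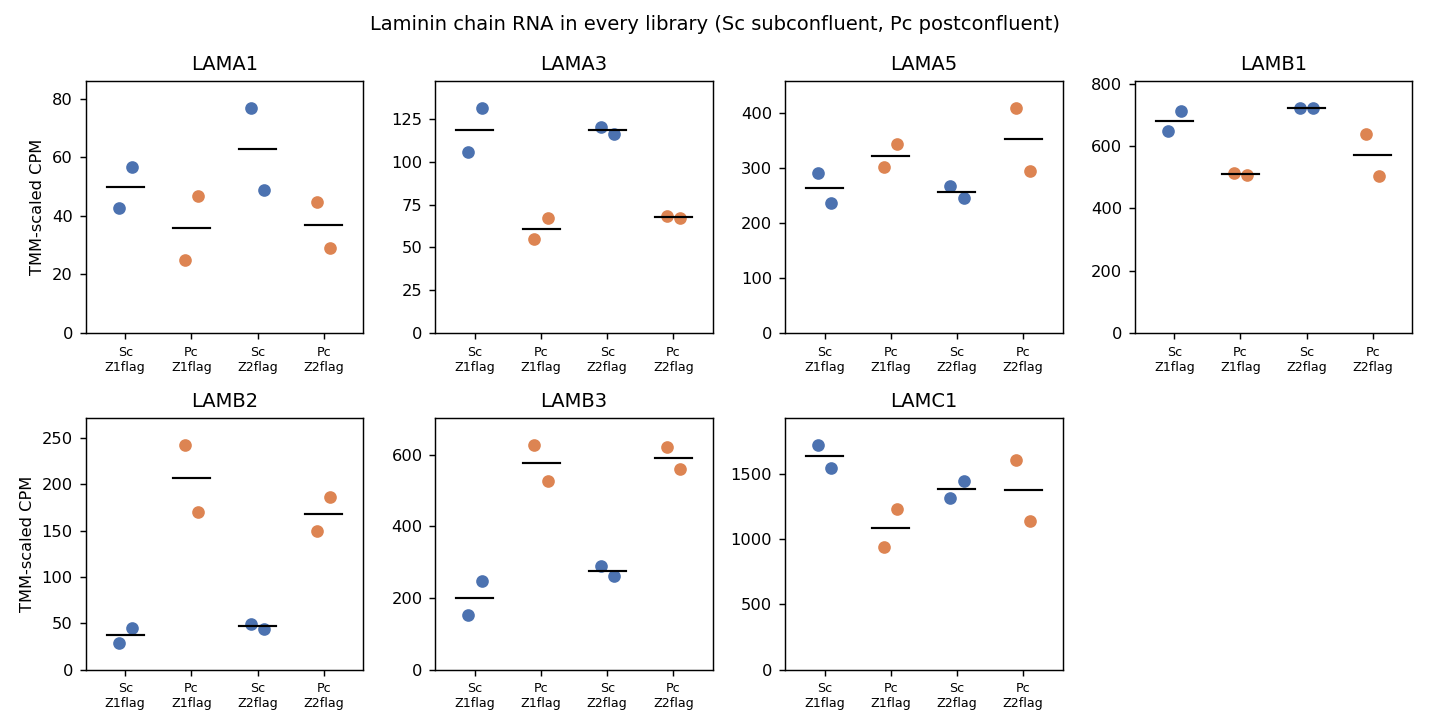
TMM-scaled CPM (y axis, from 0) of the 7 laminin chains in the 4 groups (x axis). Points are libraries, blue for subconfluent and orange for postconfluent, and bars are means of 2 libraries. LAMB2 and LAMB3 are higher and LAMA3 lower in every postconfluent library, whereas the states of LAMA1 and LAMC1 overlap.

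In numbers of chains, 2 of 7 rose (LAMB2 and LAMB3) and 1 fell (LAMA3) within Z1flag cells, where 40.5% of all tested genes were called (21.3% higher and 19.1% lower). The counts were the same within Z2flag cells, where 37.6% of all genes were called (18.3% higher and 19.3% lower). In the mean over both lines 2 rose and 3 fell, where 55.4% of all genes were called (27.8% higher and 27.5% lower). With upper-quartile scaling 6248 genes were higher and 3822 lower in the mean, in place of 5076 and 5021, and 3 chains rose and 1 fell. The share called was near that of all genes in each line, and in the mean it included LAMA1 and LAMB1, whose calls were lost with single libraries. The median log2 fold change of the 7 was -0.30 in the mean, with -0.01 over all genes. Without the 2 Z1flag libraries of experiment 1, an alternative chosen after seeing the data, LAMB2 changed by 1.91, LAMB3 by 1.13 and LAMA3 by -0.85 in the mean, and all 3 passed.

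**Figure D2:**
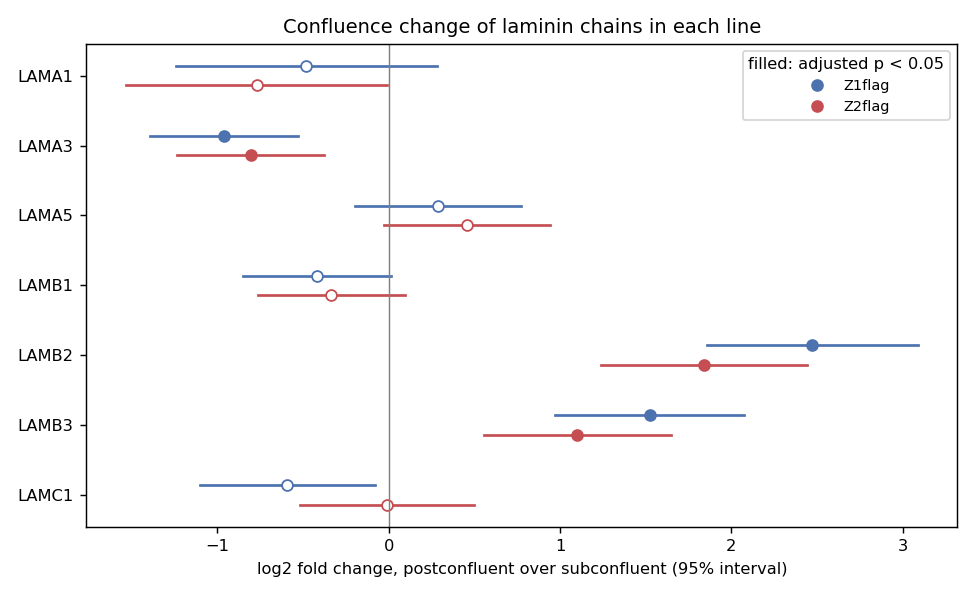
Log2 fold change of postconfluent over subconfluent libraries (x axis) for each laminin chain in Z1flag (blue) and Z2flag (red) cells, with 95% intervals from the edgeR fit. Filled points passed at an adjusted p of 0.05. LAMB2 and LAMB3 lie above 0 and LAMA3 below 0 in each line.

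Divided by the length of each gene's annotated exons, the order of the chains changed between the states. For LAMA3 that length, 14.7 kilobases, takes in the exons of its longer and shorter forms. If only the shorter form was used, the level of LAMA3 per kilobase and its share are understated, which was not tested. In subconfluent cells LAMC1 was highest at 179 ± 20.3 CPM per kilobase (SD, n = 4 libraries), followed by LAMB1 at 86.1 ± 4.34, LAMB3 at 50.8 ± 12.6, LAMA5 at 18.2 ± 1.68, LAMA3 at 8.08 ± 0.722, LAMB2 at 6.11 ± 1.33 and LAMA1 at 3.55 ± 0.935. Of these neighbours, the ranges overlapped between LAMA3 and LAMB2 and between LAMB2 and LAMA1. In postconfluent cells LAMC1, at 146 ± 32.9 CPM per kilobase, and LAMB3, at 125 ± 10.4, overlapped. LAMB1 followed at 66.4 ± 8.11, then LAMB2 at 27.2 ± 5.84 and LAMA5 at 23.5 ± 3.67, which overlapped, and LAMA3 at 4.39 ± 0.443 and LAMA1 at 2.29 ± 0.69. Among the 3 beta chains LAMB1 was the highest per kilobase before confluence and LAMB3 after it. Without length scaling, LAMB1 was above LAMB3 in postconfluent Z2flag replicate 1 (639 against 622 CPM) and below it in the other postconfluent libraries.

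Shares within a library do not depend on the scaling between libraries. LAMB3 made up 28.1% to 39.2% of the length-scaled counts of the 3 beta chains in subconfluent and 56.4% to 57.7% in postconfluent libraries. The ratio of LAMB1 to LAMB2 was 14.6 ± 3.02 before and 2.55 ± 0.774 after confluence (SD, n = 4). Among the 3 alpha chains LAMA5 went from 61.0% ± 4.45 to 77.9% ± 1.97 and LAMA3 from 27.2% ± 2.99 to 14.6% ± 1.66. The level of these alpha shares depends on the lengths taken for LAMA1, LAMA3 and LAMA5. The sum of the beta chains over LAMC1 went from 0.812 ± 0.183 to 1.55 ± 0.372. For these 5 measures the states did not overlap. A two-sided exact permutation test over 4 against 4 libraries gave p = 0.0286 for each, the smallest it allows. The adjusted p was 0.04 over the 7 ratios tested. Ratios of other genes were not put to this test, and 55.4% of all genes were called in the mean over both lines. The alpha shares are parts of 1 sum, so those of LAMA5 and LAMA3 are not separate results. The LAMA1 share, 11.9% ± 2.65 and 7.47% ± 1.46, gave an exact p of 0.0571 (adjusted p = 0.0667), and the sum of the alpha chains over LAMC1, 0.168 ± 0.024 and 0.21 ± 0.0201, an exact p of 0.0857. This test shuffled the states over the libraries of both lines together, without regard to line, and a shuffle kept within lines was not run. Within a line, 2 libraries against 2 cannot pass this test. The change of LAMB1 over LAMB2 was -2.91 in Z1flag and -2.18 in Z2flag on the log2 scale.

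**Figure D3:**
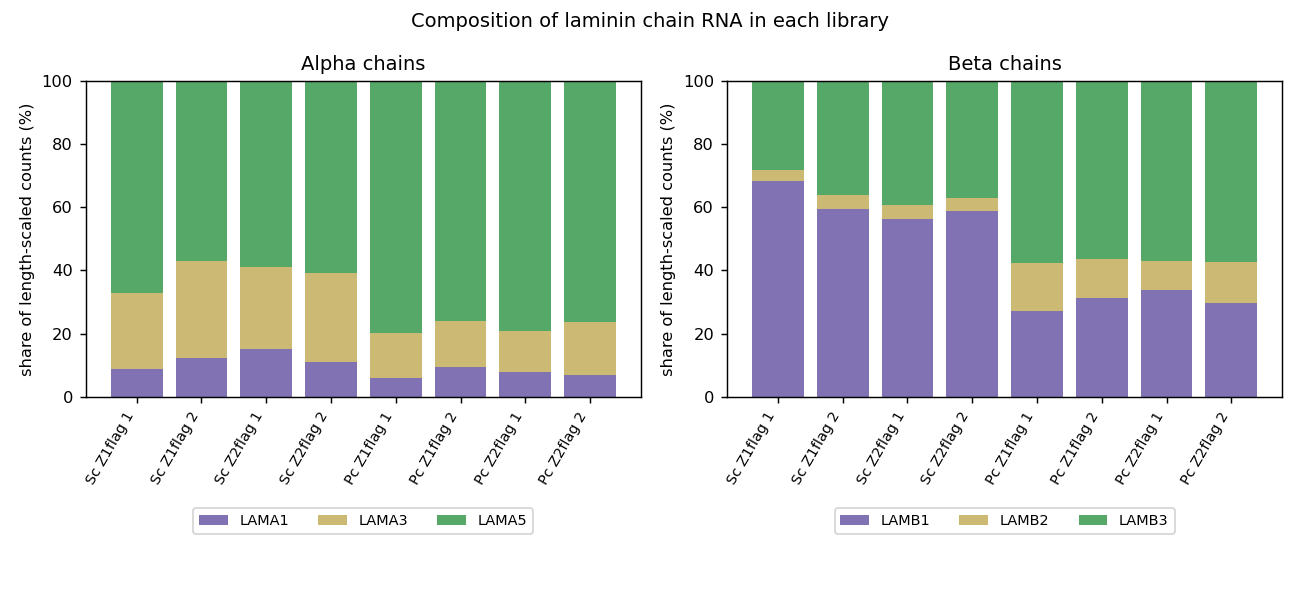
Share (y axis, percent) of each alpha chain among LAMA1, LAMA3 and LAMA5 (left) and of each beta chain among LAMB1, LAMB2 and LAMB3 (right) in each library (x axis), from counts divided by exon length. LAMA5 and LAMB3 take larger shares in all 4 postconfluent libraries, on the right of each panel, than in the 4 subconfluent ones.

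The alpha and beta chains of laminin-332 changed in opposite directions, LAMA3 falling and LAMB3 rising. Per kilobase, LAMB3 was 4.54 to 7.54 times LAMA3 in subconfluent and 24.5 to 36 times in postconfluent libraries. This ratio was described after its values were seen, and it depends on the length taken for LAMA3.

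For laminin-511 and laminin-521, the common alpha chain LAMA5 (23.5 CPM per kilobase after confluence) was below the gamma chain LAMC1 (146), by 8.38 to 11.1 times in subconfluent and 5.33 to 6.67 times in postconfluent libraries. The alpha chain was the lowest of the 3 in laminin-111 and laminin-511 in each state by these means. In laminin-521 LAMB2 was lower than LAMA5 before confluence and overlapped with it afterwards.

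Of the laminin genes outside the 7, LAMA2, LAMA4, LAMB4 and LAMC3 were close to undetected. LAMA2, of muscle and mesenchymal laminins, had 17 counts over the 8 libraries, LAMA4, of vascular laminins, had 4, and LAMC3 had 8, and these 3 did not pass the filter. LAMB4 had 83 counts, up to 0.563 CPM in a library, and its change of -0.62 with an SE of 0.49 on the log2 scale did not pass (edgeR, adjusted p = 0.304).

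The difference between the lines was tested directly, and 0 of the 7 chains passed for the confluence change or for levels in either state by edgeR, DESeq2 or limma voom. Over all genes edgeR called 0 of 18240 (0% in each of the 3 contrasts), with 902 at an unadjusted p under 0.05 for the difference in change, 195 for subconfluent and 1308 for postconfluent cells. Of the 7 chains, 0 had an unadjusted p under 0.05 in any of these. Without postconfluent Z1flag replicate 2, edgeR called 141 genes higher and 49 lower for the difference in change, again with 0 of the 7 chains. The difference in change, Z2flag minus Z1flag, was -0.63 for LAMB2 (95% interval -1.46 to 0.19), -0.42 for LAMB3 (-1.19 to 0.34), 0.15 for LAMA3 (-0.45 to 0.76) and 0.58 for LAMC1 (-0.14 to 1.30) on the log2 scale. For LAMA1 it was -0.29 (-1.36 to 0.78). These intervals leave room for differences of more than 1 log2 unit for LAMA1, LAMB2, LAMB3 and LAMC1.

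Proteins that join or hold laminin were read from lists chosen with earlier results of these data known. Of 19 tested basement membrane partners 7 rose and 8 fell in the mean over both lines, where 55.4% of all genes were called, 27.8% higher and 27.5% lower (median log2 fold change -0.38, with -0.01 over all genes). NTN4, a netrin with a laminin-like end domain that binds laminin gamma chains, fell from 296 ± 26.9 to 89.7 ± 19.7 CPM (n = 4, SD), a change of -1.73 with an SE of 0.16 on the log2 scale (edgeR, adjusted p = 2.86e-05). AGRN, the proteoglycan agrin that binds laminin, rose from 85.1 ± 4.18 to 212 ± 17.6 CPM, and COL7A1, the collagen of anchoring fibrils tied to laminin-332, from 2.01 ± 0.421 to 15.7 ± 7.02 CPM. COL4A6, a chain of basement membrane collagen, fell by 1.41 (SE 0.18) on the log2 scale. These 4 passed in each line. The list's median was -0.05 with subconfluent Z1flag replicate 2 left out and -0.71 with postconfluent Z1flag replicate 2 left out. With a filter of 5 CPM, which left 15 of these genes, 7 rose and 5 fell and the median turned to 0.16.

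Of 17 receptors and anchorage genes 9 rose and 4 fell, beside 27.8% and 27.5% of all genes (median log2 fold change 0.48, with -0.01 over all genes). ITGA3, an integrin subunit that binds laminin-332 and laminin-511, rose from 8.0 ± 0.871 to 54.1 ± 5.17 CPM, by 2.76 with an SE of 0.15 on the log2 scale (edgeR, adjusted p = 2.73e-06), and SDC4, a syndecan, from 299 ± 33.9 to 661 ± 158 CPM. COL17A1, a hemidesmosome collagen, rose from 0.1 ± 0.108 to 2.05 ± 0.775 CPM, low in both states, and ITGA1, a collagen and laminin receptor, fell by 1.34 (SE 0.18). ITGA1 overlaps PELO on the same strand. Fewer of the 17 genes were called with subconfluent Z1flag replicate 1, or with subconfluent Z2flag replicate 1 or 2, left out. Fewer of all genes were called in these settings too. The list's median was then 0.42, 0.47 and 0.47.

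All 4 tested proteases of the 10 listed that can cut laminin chains rose in the mean, beside 27.8% of all genes. HPN, the membrane protease hepsin, rose from 11.5 ± 4.73 to 158 ± 17.8 CPM, by 3.82 with an SE of 0.22 on the log2 scale (edgeR, adjusted p = 3.35e-06). MMP14, a membrane metalloprotease, rose from 56.5 ± 4.93 to 155 ± 42 CPM. These 2 passed in each line. PLAU and BMP1 passed in the mean (adjusted p = 0.0179 and 0.0497), BMP1 next to the threshold, and the count was 2 without replicate 1 of postconfluent Z2flag, subconfluent Z1flag or subconfluent Z2flag. MMP2 had no count in any library.

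**Figure D4:**
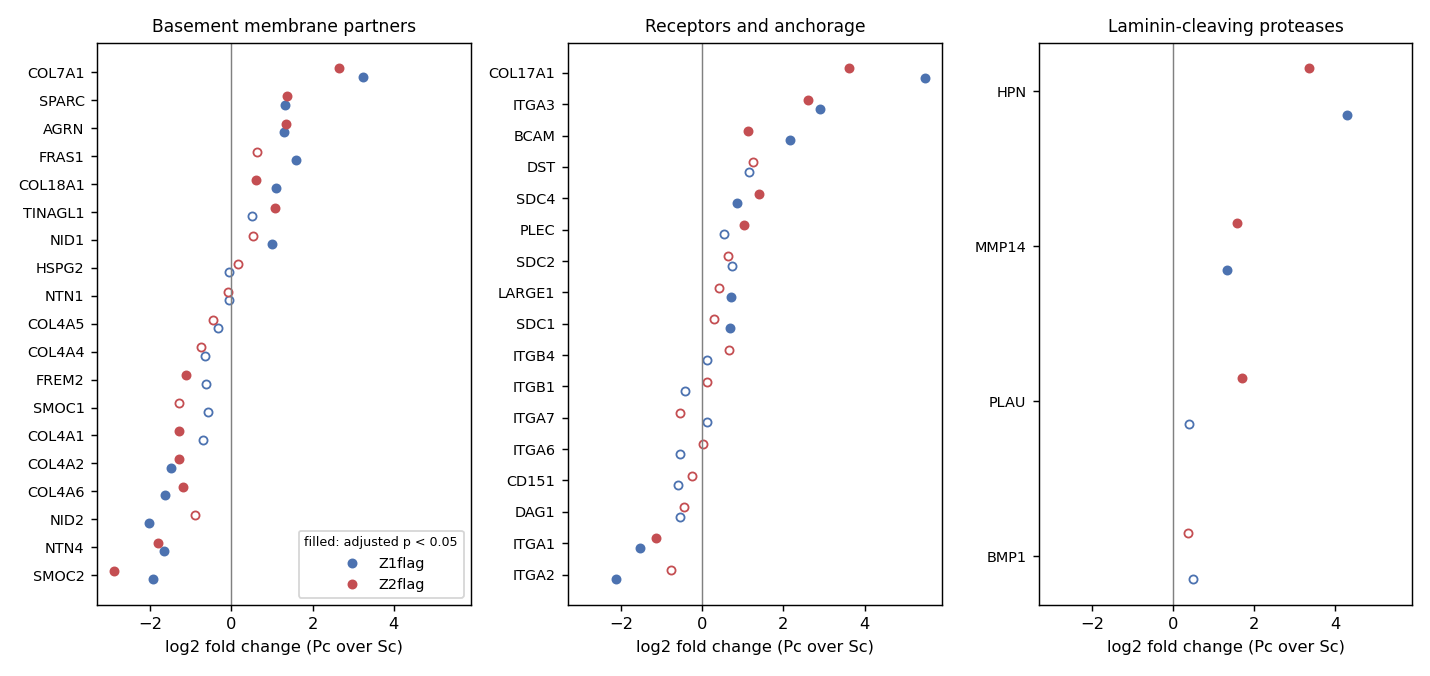
Log2 fold change of postconfluent over subconfluent cells (x axis) in Z1flag (blue) and Z2flag (red) cells for every tested gene of 3 lists, sorted by the mean change. Filled points passed at an adjusted p of 0.05. HPN, ITGA3 and COL7A1 lie well above 0 and NTN4 and COL4A6 below it in each line.

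The genes whose log2 CPM followed a chain most closely over the 8 libraries were taken from 11041 genes with a mean of at least 5 CPM. All share the libraries and the difference between the states, so the correlation is a description. They were RAB17 (r = 0.998) and SAT2 (0.995) for LAMB3, APOA2 (0.997) and PBXIP1 (0.997) for LAMB2, ISOC1 (0.995) and CENPX (0.994) for LAMA3, and HNRNPA2B1 (0.993) and RCBTB1 (0.991) for LAMB1. Likeness was lower for LAMC1, with THBS1-IT1 (0.988) and CCSAP (0.979), for LAMA5, with CNKSR1 (0.976) and CDR2L (0.974), and for LAMA1, with ZAP70 (0.968) and DDX55 (0.963). Between the chains themselves, LAMB2 and LAMB3 gave r = 0.972, LAMA3 and LAMB1 0.892, and LAMA3 and LAMB2 -0.937.

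Epithelial markers were high, with KRT8 at 6755 ± 601 and 2325 ± 1073 CPM (SD, n = 4) and CDH1 at 687 ± 28 and 1111 ± 119 CPM before and after confluence. Of 9 tested enterocyte markers 7 rose and 1, HNF4A, fell (27.8% and 27.5% over all genes), with ALPI at 9.09 ± 2.88 and 53.6 ± 11.7 CPM, while FABP2 stayed under 1 CPM. There were 4 increases without both Z1flag libraries of experiment 1. Of 12 fibroblast and smooth muscle markers 6 stayed under 1 CPM, with COL1A2 at 0, and the list summed to 183 to 233 CPM in subconfluent and 72.6 to 88.3 CPM in postconfluent libraries. Of the 6 tested, 2 rose and 3 fell in the mean, beside 27.8% and 27.5% of all genes. PDGFRA fell from 84.7 ± 17.2 to 8.75 ± 3.68 CPM and LUM from 75.7 ± 15.8 to 19.5 ± 10.6 CPM, and COL3A1 fell by 2.80 on the log2 scale, whereas COL1A1 rose from 11.6 ± 0.827 to 34.1 ± 4.90 CPM. Of 8 endothelial and leukocyte markers 5 stayed under 1 CPM, with KDR at 0. The list summed to 5.54 to 12.4 CPM in subconfluent and 10.5 to 26.9 CPM in postconfluent libraries. Of the 4 tested, 3 rose and 0 fell in the mean over both lines, beside 27.8% and 27.5% of all genes. ITGAM rose from 0.744 ± 0.167 to 2.26 ± 0.594 CPM and PECAM1 from 6.26 ± 3.24 to 13.0 ± 6.32 CPM. PECAM1 did not pass in Z2flag cells (edgeR, adjusted p = 0.825). The library labels name the colon cancer line and no other cell type, so these markers are not taken as evidence of other cells. Whether the line itself gave the fibroblast, endothelial and leukocyte marker counts was not tested. Nor was any part of other cells in the laminin counts.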

How the data were processed

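The data are 8 RNA-seq libraries of Caco-2/15 cells, per the labels rRNA-depleted and strand-specific. The authors deposited raw counts per Ensembl gene ID. STAR 2.5.2b, SAMtools, HTSeq and hg38 are named in the submitters' processing notes. The sources used here do not state the annotation or the strand setting. Symbols came from a gene name table (57532 of 58302 IDs matched), and positions and exon lengths from GENCODE v29. Unassigned reads were left out. Reads without a feature were 20.6% to 32.0% of reads.

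Counts were fitted over all 8 libraries in R 4.3.3 with edgeR 4.0.16 (TMM, filterByExpr with minimum count 10 and total 15, robust quasi-likelihood F test, 4 group means, 4 residual degrees of freedom) and adjusted by Benjamini-Hochberg over all genes tested, with a threshold of 0.05. Log2 CPM used a prior count of 2. An SE is the fold change divided by the square root of F. The steps were tested on simulated counts. Ratios used scipy 1.17.1. Alternatives used DESeq2 1.42.0 and limma 3.58.1. The chains, lists and motifs were chosen with earlier results of these data known. One gene that the naming rule covers is not reported here. Named were laminin genes and the 2 genes most like each chain. From each list up to 4 genes were named, ranked by adjusted p among those averaging 1 CPM or more, plus the first of the other direction. ITGA6, ITGB1, ITGB4, PLEC and DST were named in addition. Counting intervals would cover counting error only. Deviations of libraries with the same experiment number correlated between groups with r from -0.18 to 0.178, so the numbers were not taken as pairs.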

Additional observations from a re-analysis of the deposited data

Results flagged for a closer look

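In 3 of the 14 sets of 4 libraries of a state, 1 library lay far from the others by Dixon's criterion. These were LAMA3 in postconfluent Z1flag replicate 1 (54.7 CPM), LAMB1 in subconfluent Z1flag replicate 1 (648 CPM) and LAMB1 in postconfluent Z2flag replicate 1 (639 CPM). Chance flags about 1 in 20 such sets, and each set joins both lines.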

How the results depend on the processing

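LAMB2 and LAMB3 rose and LAMA3 fell in the mean over both lines under all 17 alternatives. The 3 chains that fell in the mean became 1 with RLE scaling, with upper-quartile scaling (which moved the median of all genes from -0.01 to 0.18), when genes needed 5 CPM in 2 or more libraries and without both Z1flag libraries of experiment 1, an alternative chosen after seeing the data. They numbered 1 to 3 when each library was left out. Within Z1flag cells the count of chains that fell was 2 with limma voom, without a filter and with the no-feature share as a covariate, and 1 to 3 with a library left out. Within Z2flag cells it was 2 without a filter and with that covariate, and 0 to 1 with a library left out, and the count that rose was 1 to 3, and 3 with upper-quartile scaling. The 2 that rose in the mean became 3, with LAMA5, under DESeq2, the 5 CPM filter, upper-quartile scaling and without both Z1flag libraries of experiment 1, and numbered 2 to 3 with a library left out. Leaving out a library of a group leaves 1 there, assumed to vary like the others. With a replicate block by experiment number 2 rose and 2 fell in the mean, and 2 rose and 1 fell in each line, LAMA1 (adjusted p = 0.0601) being the call lost. Of the named list genes BMP1 was lost, which left 3 proteases.

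Small changes crossed 0. That of LAMC1 in Z2flag cells (-0.01) was 0.087 with the CPM filter, 0.053 with DESeq2 and with RLE scaling (0.053), 0.056 with only the libraries compared, 0.149 with upper-quartile scaling, 0.041 without both Z1flag libraries of experiment 1, and -0.19 to 0.30 with a library left out. The difference between lines lay at -0.62 to 0.33 for LAMA1, -0.023 to 0.40 for LAMA3, -0.00999 to 0.47 for LAMA5 and -0.026 to 0.33 for LAMB1 with a library left out, and without both experiment 1 libraries it was -0.052 for LAMA5 and 0.036 for LAMB3. The cause was not tested. For the difference in change between lines, 0 genes passed, but 14 were higher and 27 lower in Z2flag without a filter, and 141 and 49 without postconfluent Z1flag replicate 2, and between postconfluent lines 66 and 155 without a filter and 1196 and 1056 without that library, with 0 of the 7 chains called in each. The 7 ratios kept their direction with the longest transcript as length, without length scaling and with each library left out, where 3 against 4 libraries cannot pass. The low counts of LAMA2, LAMA4 and LAMC3 allow no comparison at this depth.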
